A study of Oncorhynchus mykiss with 6 samples.

Results

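The genes of protein export, the movement of newly made secretory and membrane proteins into the endoplasmic reticulum (ER), were followed through the RNA of 43 loci in rainbow trout (Oncorhynchus mykiss) dorsal skin. The loci are those whose deposited pathway annotation names protein export, without any heat shock protein by description, and they make up 43 of the 41818 loci in the deposited table. They fall into the signal recognition particle (11 loci), its receptor (4 loci), the Sec61, Sec62 and Sec63 translocon (12 loci), signal peptidase (8 loci), the ER chaperone BiP (2 loci) and 6 loci of mitochondrial proteins. RNA was sequenced from dorsal skin of yellow mutant trout (3 libraries) and wild-type trout (3 libraries), all aged 45 days. Protein levels and protein movement were not measured here. The study addressed skin colour variation between these phenotypes. The labels give the mutant as a phenotype only, without the affected gene, strain or origin of the mutation, and do not say whether the libraries came from separate fish or pools. Spread between libraries, the basis of the p-values, may thus be technical in part. Errors of log2 fold changes are standard errors (SE), and other errors are SDs over the 3 libraries of a phenotype.

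In the co-translational route, the signal recognition particle (SRP) binds the signal peptide of a growing chain and brings the ribosome to its receptor on the ER membrane. The chain then passes through the Sec61 channel, signal peptidase removes the signal peptide, and BiP in the ER lumen binds the entering chain. Skin depends on this route for collagens, mucins, scale matrix and the melanosomal membrane proteins of pigment cells. The roles given here were worked out mainly in mammalian cells and yeast. Salmonids carry many duplicated genes, so most subunits were represented by 2 or more loci, and the sources used here do not say how reads shared between near-identical copies were counted. Values for single copies are uncertain to that extent.

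Library totals lay between 15059101 and 19031878 counts, and 36471 to 37044 loci had at least 1 count. Keratin loci took 3.27 ± 0.131% of counts in yellow mutant skin and 7.23 ± 0.134% in wild-type skin (SD, n = 3 each), and the protein export loci took 0.303 ± 0.0174% in yellow mutant skin and 0.159 ± 0.0029% in wild-type skin. The export shares are of raw library totals and include BiP. The TMM factors that correct library composition averaged 1.07 ± 0.00919 in the mutants and 0.934 ± 0.0154 in the wild type. With TMM scaling, the summed loci had mutant over wild-type ratios of 3.03 for BiP and 1.20 to 1.41 for the other groups. Under library totals alone, the typical locus was shifted upwards: the median over all tested loci was 0.20 on the log2 scale, against -0.0029 with TMM, and 70.4% of all calls were higher, against 48.5%. Marker lists identified the tissue as skin with underlying muscle: keratinocyte markers summed to 32295 to 36018 CPM (counts scaled to library size and TMM factor) in the mutants and 81172 to 85469.6 CPM in the wild type, with 2 higher and 27 lower of 39 tested loci. Pigment cell markers summed to 1205 to 1441 CPM in the mutants and 548 to 631 CPM in the wild type (13 higher, 0 lower of 14). Dermal fibroblast and scale markers gave 55174 to 60674 CPM in the mutants and 68686 to 77975 CPM in the wild type (1 higher, 9 lower of 21), while mucous cell markers overlapped, at 1729 to 1963 CPM in the mutants and 1548 to 1822 CPM in the wild type (6 higher, 12 lower of 24). Skeletal muscle markers also overlapped, at 13348 to 19987 CPM in the mutants and 17317 to 21282 CPM in the wild type (6 higher, 6 lower of 28). In bulk RNA, fewer cells of a type and less RNA per cell cannot be told apart, and the part of these cell type differences in the results was not tested.

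RNA of most of the export machinery was more abundant in yellow mutant skin. Of the 43 loci, 40 had enough counts to be tested, and 29 of these were higher, 1 was lower and 10 did not pass an adjusted p of 0.05 (edgeR quasi-likelihood test on counts, Benjamini-Hochberg adjustment over all 30691 tested loci). The share called higher was 72.5%, against 21.7% of all tested loci, and the share called lower in the whole table was 23.1%. Their median log2 fold change, mutant over wild type, was 0.44, against -0.0029 in the whole table, and 38 of 40 were above 0, against 49.8% of all tested loci. In 32 of 40 loci every yellow mutant library lay above every wild-type library, and in 2 every mutant library lay below, against 26.8% and 27.6% of all tested loci in the same order. Among loci with a mean of at least 5 CPM, 28 of 39 were higher, against 25.3% of such loci in the table. The count stayed between 24 and 38 loci under every other setting tried, and 22 of the 29 calls passed in each of them. Over these settings the share of all tested loci called higher ran from 14.5% to 37.4%. In the authors' deposited table, 24 of the 43 loci had an FDR under 0.05, and all 24 were higher in the mutant. The deposited FDR equalled the adjusted p of the DESeq2 setting at loci such as SEC62 ncbi_110530014 (0.0598) and Sec63 (0.0797). This count is thus not separate from that of the DESeq2 setting, under which 14.5% of all tested loci were higher.

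**Figure D1:**
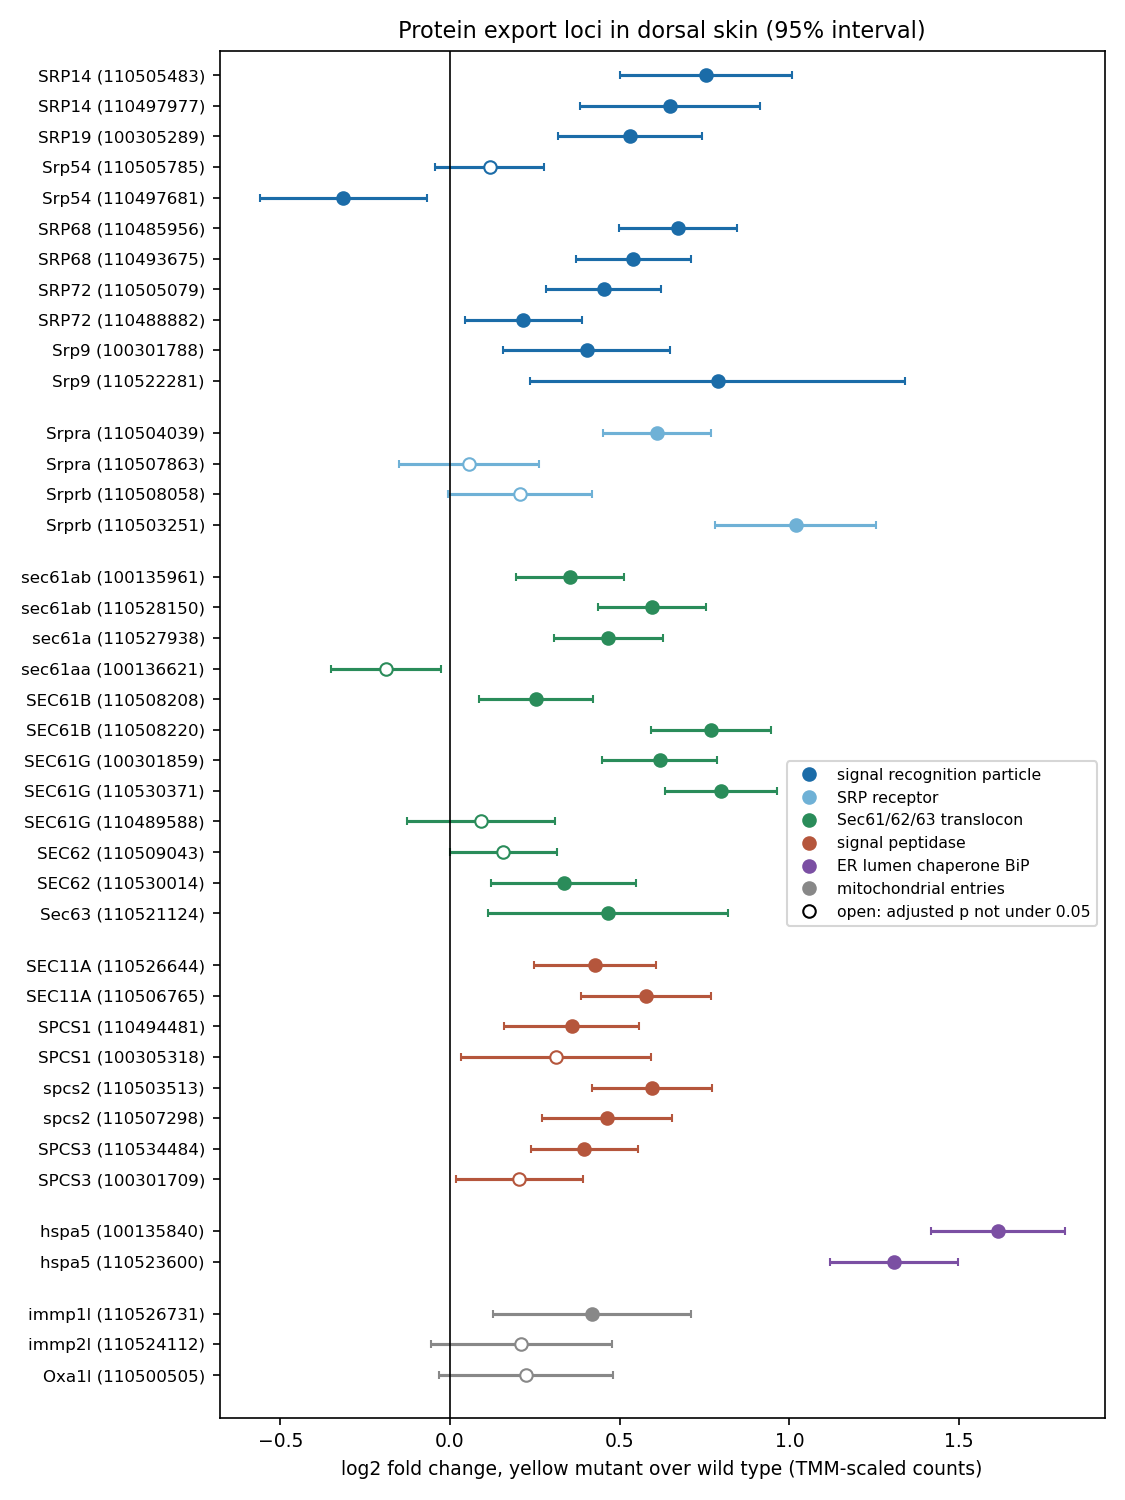
Log2 fold change, yellow mutant over wild type, of the 40 tested protein export loci (x axis) by locus and group (y axis, symbol and NCBI gene number), with 95% intervals from the edgeR fit. Filled points passed an adjusted p of 0.05; the BiP loci stand farthest to the right, at 1.61 and 1.31, and 2 loci lie left of 0.

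The signal recognition particle was more abundant in yellow mutant skin at most of its loci. Of its 11 loci, 9 were higher, 1 was lower and 1 did not pass, with a median log2 fold change of 0.53. Of all tested loci, 21.7% were higher and 23.1% lower. Summed over the 11 loci the particle had 373, 373 and 382 CPM in the yellow mutant libraries, against 292, 289 and 293 CPM in the wild-type libraries, so that every mutant library lay above every wild-type library, by a ratio of 1.29. Every locus of the Alu-domain proteins, of SRP19 and of SRP68 and SRP72 passed as higher, and neither locus of the signal-binding SRP54 did.

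SRP68 and SRP72 form a heterodimer in the S domain of the particle, the part that also carries SRP54. SRP68 (ncbi_110485956) had 52.8, 57.7 and 57.4 CPM in the yellow mutant libraries, against 32.5, 36.3 and 36.7 CPM in the wild-type libraries. The groups did not overlap, and the log2 fold change was 0.67 ± 0.08 (adjusted p = 1.87e-05). Its second locus, ncbi_110493675, had 38.0, 40.7 and 37.5 CPM in yellow mutant skin, against 25.7, 28.1 and 26.2 CPM in wild-type skin, with a log2 fold change of 0.54 ± 0.08 (adjusted p = 0.0001). The phenotypes were apart at both SRP68 loci. The more abundant SRP72 locus (ncbi_110505079) had 53.4, 56.4 and 57.8 CPM in the yellow mutant libraries, against 43.1, 37.7 and 41.5 CPM in the wild-type libraries, a log2 fold change of 0.45 ± 0.08 (adjusted p = 0.000428). The other SRP72 locus, ncbi_110488882, averaged 26.5 ± 0.850 CPM in yellow mutant skin and 22.8 ± 0.956 CPM in wild-type skin, a smaller change of 0.22 ± 0.08 on the log2 scale (adjusted p = 0.041). That call was lost without any single wild-type library, without yellow mutant library 1 or 3, with DESeq2 and with no filter on low counts. Adjusted p-values over these settings were 0.0548 to 0.152.

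SRP9 and SRP14 form the Alu-domain heterodimer that slows translation until the ribosome is docked. SRP14 (ncbi_110505483) had 16.8, 16.7 and 17.97 CPM in the yellow mutant libraries, against 8.59, 11.9 and 10.1 CPM in the wild-type libraries. All mutant libraries were above all wild-type libraries, with a log2 fold change of 0.75 ± 0.12 (adjusted p = 0.000178). The second SRP14 locus, ncbi_110497977, had 11.7, 10.6 and 12.9 CPM in yellow mutant skin, against 7.34, 6.87 and 8.17 CPM in wild-type skin, again without overlap (log2 fold change 0.65 ± 0.12, adjusted p = 0.000842). The more abundant Srp9 locus (ncbi_100301788) had 15.0, 13.2 and 16.7 CPM in the yellow mutant libraries, against 12.3, 10.6 and 10.96 CPM in the wild-type libraries, a log2 fold change of 0.40 ± 0.11 (adjusted p = 0.0111). The second Srp9 locus, ncbi_110522281, was the least abundant locus of the particle, with 2.83, 3.03 and 3.17 CPM in the mutants, against 1.13, 2.07 and 2.06 CPM in the wild type, and its log2 fold change of 0.79 ± 0.26 had the widest error of the group (adjusted p = 0.0231). Both Srp9 calls were sensitive to single libraries: the first was lost without yellow mutant library 3 (adjusted p = 0.0543) and the second without wild-type library 1 or yellow mutant library 2 or 3 (0.0525 to 0.0915). The second was also lost with DESeq2 (0.0588).

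SRP19, which binds the SRP RNA and prepares it for SRP54, was represented by 1 locus (ncbi_100305289) with 31.5, 28.6 and 35.5 CPM in the yellow mutant libraries, against 21.8, 24.0 and 20.5 CPM in the wild-type libraries. It was higher without overlap, with a log2 fold change of 0.53 ± 0.10 (adjusted p = 0.000691).

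SRP54, the GTPase that holds the signal peptide and meets the receptor, had no locus past the threshold as higher. The abundant Srp54 locus (ncbi_110505785) had 116, 113 and 108 CPM in the yellow mutant libraries, against 106, 98.0 and 106 CPM in the wild-type libraries. The mutant libraries lay just above the wild-type libraries, but the log2 fold change of 0.12 ± 0.07 did not pass (adjusted p = 0.22, 95% interval -0.04 to 0.28). The rarer Srp54 locus, ncbi_110497681, had 8.56, 7.73 and 7.83 CPM in yellow mutant skin, against 10.02, 10.5 and 9.44 CPM in wild-type skin, every mutant library below every wild-type library. Its log2 fold change of -0.31 ± 0.11 (adjusted p = 0.0389) was the single lower call among the 40 tested loci. It did not pass in 13 of the other settings (adjusted p 0.0522 to 0.431), among them leaving out wild-type library 1 or 2 or yellow mutant library 2 or 3, while the abundant locus passed as higher in 6 settings, both library totals settings and the 4 limma fits (adjusted p 0.00304 to 0.012).

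**Figure D2:**
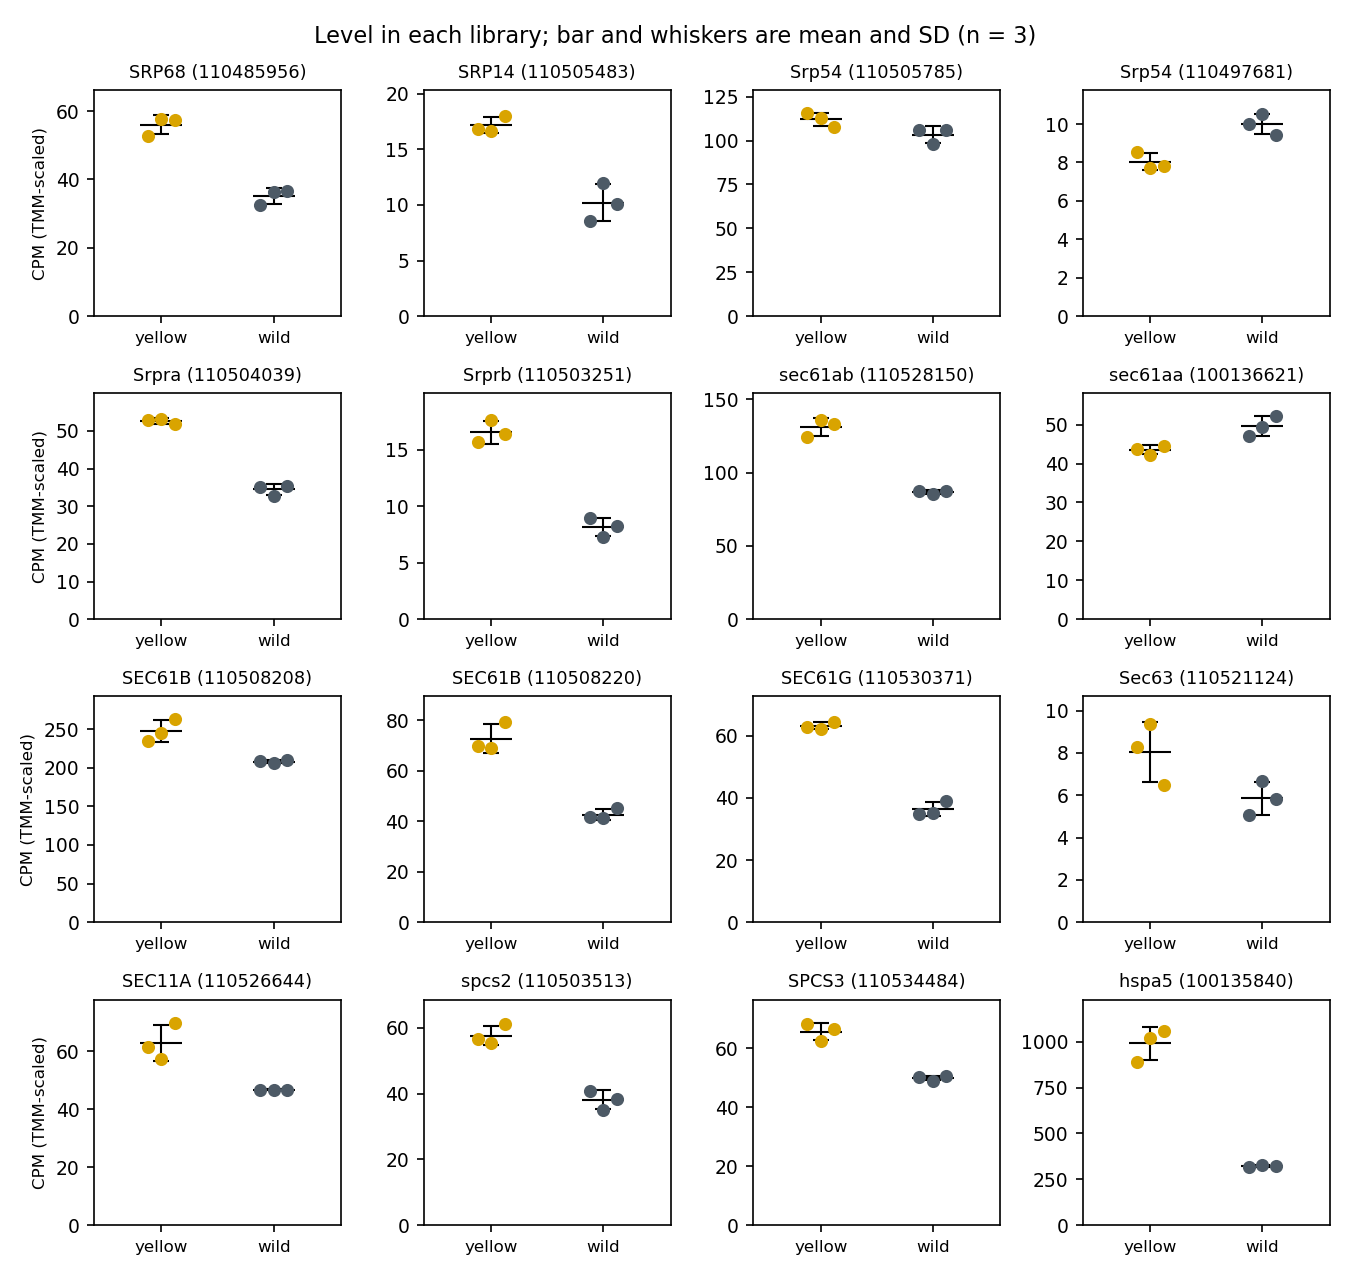
TMM-scaled level in CPM (y axes, from 0) of 16 protein export loci in each yellow mutant library (left in each panel) and wild-type library (right), with mean and SD (n = 3 each). The 16 loci are a selection. The groups are apart in 15 panels and overlap for Sec63, and the rarer Srp54 locus and sec61aa run lower in the mutant. Over all 40 tested export loci, every mutant library lay above in 32 and below in 2, against 26.8% and 27.6% of all tested loci.

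The SRP receptor sits on the ER membrane as a heterodimer of 2 GTPases, Srpra, which pairs with SRP54, and Srprb, which anchors it. Each subunit had 1 locus that was higher and 1 that did not pass, against 21.7% higher of all tested loci. The median of the 4 log2 fold changes was 0.41. Summed, the receptor had 102, 105 and 101 CPM in the yellow mutant libraries, against 74.0, 69.2 and 76.1 CPM in the wild-type libraries, a ratio of 1.41. Srpra ncbi_110504039 had 53.0, 53.2 and 51.7 CPM in yellow mutant skin, against 35.1, 32.8 and 35.5 CPM in wild-type skin, without overlap and with a log2 fold change of 0.61 ± 0.07 (adjusted p = 2.04e-05). Its copy, ncbi_110507863, averaged 14.5 ± 0.886 CPM in yellow mutant skin and 13.9 ± 0.563 CPM in wild-type skin, a log2 fold change of 0.06 ± 0.10 (adjusted p = 0.659, 95% interval -0.15 to 0.26). That copy passed as higher under library totals alone (adjusted p = 0.0459).

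Srprb ncbi_110503251 showed the greatest fold change of the SRP, receptor, translocon and signal peptidase loci. It had 15.7, 17.7 and 16.4 CPM in the yellow mutant libraries, against 8.95, 7.30 and 8.23 CPM in the wild-type libraries, a 2.03-fold difference with no overlap (log2 fold change 1.02 ± 0.11, adjusted p = 7.55e-06). The more abundant Srprb locus, ncbi_110508058, had 20.1, 19.1 and 18.3 CPM in yellow mutant skin, against 15.4, 15.7 and 18.6 CPM in wild-type skin. The mutant and wild-type values of that locus overlapped and its log2 fold change of 0.21 ± 0.10 did not pass (adjusted p = 0.107). It passed as higher without wild-type library 3 (adjusted p = 0.037). It also passed under both library totals settings and in every limma fit (adjusted p 0.00317 to 0.00943).

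The translocon had 9 higher loci, 0 lower loci and 3 that did not pass among 12, with a median log2 fold change of 0.41. Of all tested loci, 21.7% were higher and 23.1% lower. At an unadjusted p under 0.05, 1 of the 12 was lower by edgeR, and no alternative scaling or tool called any translocon locus lower. Summed over the 12 loci it had 896, 938 and 964 CPM in the yellow mutant libraries, against 709, 698 and 721 CPM in the wild-type libraries, a ratio of 1.31. Higher loci were found for all 3 Sec61 subunits and for Sec62 and Sec63.

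Sec61 alpha, the channel itself, had 4 loci, of which 3 were higher. The most abundant, sec61ab ncbi_100135961, had 133, 142 and 142 CPM in the yellow mutant libraries, against 110.0, 104 and 112 CPM in the wild-type libraries, without overlap and with a log2 fold change of 0.35 ± 0.07 (adjusted p = 0.00165). Another sec61ab locus, ncbi_110528150, had 124, 136 and 133 CPM in yellow mutant skin, against 87.7, 85.3 and 87.2 CPM in wild-type skin, a greater change of 0.60 ± 0.07 (adjusted p = 2.51e-05). The sec61a locus ncbi_110527938 averaged 84.5 ± 3.62 CPM in yellow mutant skin and 61.1 ± 2.31 CPM in wild-type skin (log2 fold change 0.47 ± 0.07, adjusted p = 0.000207). The fourth, sec61aa ncbi_100136621, ran the other way, with 43.8, 42.3 and 44.6 CPM in the mutants, against 47.2, 49.5 and 52.2 CPM in the wild type. Every mutant library was below every wild-type library, but its log2 fold change of -0.19 ± 0.07 did not pass (adjusted p = 0.0561). It passed as lower without wild-type library 1 (-0.23, adjusted p = 0.0454) and turned to 0.01 under library totals alone, so its direction depended on the scaling.

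Sec61 beta and gamma are small single-span subunits beside the channel. SEC61B ncbi_110508208, the most abundant locus of the translocon by CPM, had 235, 245 and 263 CPM in the yellow mutant libraries, against 208, 205 and 209.9 CPM in the wild-type libraries. The groups were apart, with a log2 fold change of 0.25 ± 0.08 (adjusted p = 0.0169), and this call was lost without wild-type library 2 (adjusted p = 0.0665) or 3 (0.0522). The other SEC61B locus, ncbi_110508220, had 69.5, 69.0 and 79.2 CPM in yellow mutant skin, against 41.4, 41.1 and 45.2 CPM in wild-type skin, a change of 0.77 ± 0.08 (adjusted p = 7.35e-06). For the gamma subunit, SEC61G ncbi_100301859 had 63.1, 71.4 and 70.6 CPM in the yellow mutant libraries, against 42.9, 45.6 and 45.3 CPM in the wild-type libraries (log2 fold change 0.62 ± 0.08, adjusted p = 3.10e-05). SEC61G ncbi_110530371 had 63.01, 62.3 and 64.5 CPM in yellow mutant skin, against 34.8, 35.3 and 39.0 CPM in wild-type skin, the greatest fold change of the translocon, at 0.80 ± 0.08 (adjusted p = 2.56e-06). The third SEC61G locus, ncbi_110489588, averaged 20.8 ± 1.57 CPM in yellow mutant skin and 19.6 ± 2.17 CPM in wild-type skin. It did not pass (log2 fold change 0.09 ± 0.10, adjusted p = 0.495), but passed as higher under library totals alone and in every limma fit (0.0356 to 0.0409). Both beta loci and 2 of 3 gamma loci were thus higher.

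Sec62 and Sec63 join Sec61 for chains that enter after translation, and Sec63 carries the J domain that recruits BiP. SEC62 ncbi_110509043 had 37.5, 37.5 and 36.8 CPM in the yellow mutant libraries, against 32.4, 33.6 and 34.3 CPM in the wild-type libraries. Every mutant library was above every wild-type library by a small margin. The log2 fold change of 0.16 ± 0.07 did not pass (adjusted p = 0.0969, 95% interval -0.0002 to 0.32). This locus passed as higher under both library totals settings and in every limma fit (adjusted p 0.00116 to 0.00524). The rarer SEC62 locus, ncbi_110530014, averaged 16.6 ± 0.855 CPM in yellow mutant skin and 13.2 ± 1.12 CPM in wild-type skin and passed at 0.33 ± 0.10 (adjusted p = 0.0141). That call was lost without wild-type library 2 (0.0669) or yellow mutant library 1 (0.0503), and with DESeq2 (0.0598). Sec63 (ncbi_110521124) had 8.27, 9.35 and 6.50 CPM in yellow mutant skin, against 5.07, 6.65 and 5.81 CPM in wild-type skin, and the groups overlapped. Its log2 fold change of 0.47 ± 0.16 passed (adjusted p = 0.0333). The call was lost with DESeq2 and without wild-type library 1 or 3 or yellow mutant library 1 or 2 (adjusted p 0.0699 to 0.138 over these settings).

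Signal peptidase, the ER membrane protease that cuts off signal peptides, had 6 higher loci and 2 that did not pass among 8, against 21.7% higher of all tested loci. None was lower at an adjusted or an unadjusted p of 0.05 by edgeR, nor by DESeq2 or limma, and the median log2 fold change was 0.41. In all 8 loci every mutant library lay above every wild-type library, against 26.8% of all tested loci. The 8 loci summed to 351, 324 and 369 CPM in the yellow mutant libraries, against 265, 251 and 256 CPM in the wild-type libraries, a ratio of 1.35.

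SEC11A is the catalytic subunit. Its main locus, ncbi_110526644, had 61.6, 57.5 and 69.7 CPM in the yellow mutant libraries, against 46.7, 46.9 and 46.9 CPM in the wild-type libraries, a log2 fold change of 0.43 ± 0.08 (adjusted p = 0.00101). The wild-type values were nearly equal while the mutant values spread more widely. The other SEC11A locus, ncbi_110506765, had 44.0, 40.4 and 48.2 CPM in yellow mutant skin, against 31.2, 27.3 and 30.3 CPM in wild-type skin (log2 fold change 0.58 ± 0.09, adjusted p = 0.00016). SPCS2, an accessory subunit that contacts Sec61 beta, gave similar changes at both of its loci. Locus spcs2 ncbi_110503513 had 56.7, 55.3 and 61.1 CPM in the yellow mutant libraries, against 40.8, 35.1 and 38.5 CPM in the wild-type libraries (log2 fold change 0.60 ± 0.08, adjusted p = 6.11e-05), and spcs2 ncbi_110507298 averaged 39.7 ± 4.29 CPM in yellow mutant skin and 28.8 ± 0.802 CPM in wild-type skin (log2 fold change 0.46 ± 0.09, adjusted p = 0.000889).

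SPCS3, which is required for the protease to work, and SPCS1, a small accessory subunit, each had 1 locus past the threshold and 1 not. SPCS3 ncbi_110534484 had 68.2, 62.5 and 66.5 CPM in the yellow mutant libraries, against 50.3, 49.0 and 50.5 CPM in the wild-type libraries (log2 fold change 0.40 ± 0.07, adjusted p = 0.000664), and SPCS3 ncbi_100301709 averaged 40.2 ± 4.27 CPM in yellow mutant skin and 34.8 ± 0.309 CPM in wild-type skin (log2 fold change 0.20 ± 0.09, adjusted p = 0.072). SPCS1 ncbi_110494481 had 29.4, 26.5 and 30.2 CPM in yellow mutant skin, against 24.4, 22.5 and 20.2 CPM in wild-type skin (log2 fold change 0.36 ± 0.09, adjusted p = 0.00652). The second SPCS1 locus, ncbi_100305318, averaged 8.56 ± 0.397 CPM in yellow mutant skin and 6.89 ± 0.783 CPM in wild-type skin (log2 fold change 0.31 ± 0.13, adjusted p = 0.0665). The second SPCS3 locus passed without yellow mutant library 2 (adjusted p = 0.0216). Under both library totals settings and in the 4 limma fits, the second SPCS3 locus (0.00153 to 0.00495) and the second SPCS1 locus (0.00266 to 0.0129) passed.

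BiP, the Hsp70-type chaperone of the ER lumen that binds chains emerging from Sec61, rose most. Its product name in the table is not that of a heat shock protein by wording, so it stayed among the 43 loci. The main hspa5 locus (ncbi_100135840) had 889, 1022 and 1061 CPM in the yellow mutant libraries, against 319, 328 and 323 CPM in the wild-type libraries, a 3.06-fold difference. The groups were far apart and the mutant libraries spread more (SD 89.9 CPM in the mutants, against 4.63 CPM in the wild type). The log2 fold change was 1.61 ± 0.09 (adjusted p = 3.08e-08). The second hspa5 locus, ncbi_110523600, had 42.8, 46.3 and 50.3 CPM in yellow mutant skin, against 17.8, 19.0 and 19.6 CPM in wild-type skin, with a log2 fold change of 1.31 ± 0.09 (adjusted p = 1.22e-07). Both passed in every setting.

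The remaining loci belong to families whose bacterial relatives take part in secretion, and their products work in the inner mitochondrial membrane. Of 6 loci, 3 were removed by the filter on low counts, with at most 12 counts in any library (immp1l ncbi_110506942, Oxa1l ncbi_110532942, and immp2l ncbi_110502274 with 0 counts throughout). Of the 3 tested, 1 was higher, against 21.7% of all tested loci, with a median of 0.22. The inner membrane peptidase subunit immp1l (ncbi_110526731) had 8.61, 7.88 and 9.67 CPM in the yellow mutant libraries, against 6.98, 6.72 and 5.87 CPM in the wild-type libraries (log2 fold change 0.42 ± 0.13, adjusted p = 0.0219). That call was lost without wild-type library 3 (0.0865) or yellow mutant library 3 (0.0905), and with DESeq2 (0.0809). The other peptidase subunit, immp2l ncbi_110524112, had 10.8, 9.25 and 11.5 CPM in yellow mutant skin, against 9.54, 8.08 and 9.50 CPM in wild-type skin, and the groups overlapped (log2 fold change 0.21 ± 0.12, adjusted p = 0.185). The membrane insertase Oxa1l (ncbi_110500505) had 16.6, 24.0 and 19.9 CPM in the mutants, against 16.7, 17.5 and 17.7 CPM in the wild type. Its groups overlapped as well (log2 fold change 0.22 ± 0.12, adjusted p = 0.145), and it passed without yellow mutant library 1 (0.0212). Under both library totals settings and in every limma fit, immp2l ncbi_110524112 (0.0148 to 0.0342) and Oxa1l ncbi_110500505 (0.00998 to 0.0283) passed as higher.

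Levels of different subunits were compared per length, as the deposited FPKM summed over the loci of a subunit. FPKM follow library totals, so they order the subunits within a phenotype and are not used for the change between phenotypes. In yellow mutant skin the RNA of BiP was the most abundant, at 431 ± 42.4 FPKM (SD, n = 3), whereas in wild-type skin it had 124 ± 1.46 FPKM and stood below all 3 Sec61 subunits. Sec61 beta had 369.8 ± 24.9 FPKM in the mutants and 251 ± 4.36 FPKM in the wild type. Sec61 gamma had 308 ± 14.8 FPKM in the mutants and 176 ± 0.697 FPKM in the wild type, and Sec61 alpha 209.6 ± 9.23 FPKM in the mutants and 143 ± 4.39 FPKM in the wild type. On FPKM the order beta, gamma, alpha held in both phenotypes with gaps beyond the SDs. These SDs do not cover error in the locus lengths behind FPKM. In the mutants, sec61ab loci ncbi_100135961 and ncbi_110528150 averaged 139 and 131 CPM, but 97.3 and 51.2 FPKM. The ranks of subunits thus hold for FPKM only. Among the ER-route subunits Sec63 was lowest, with 6.65 ± 1.18 FPKM in the mutants and 4.21 ± 0.535 FPKM in the wild type. Sec62 was next, with 12.1 ± 0.170 FPKM in the mutants and 9.03 ± 0.240 FPKM in the wild type. Sec63 was represented by 1 locus, whose product name is marked partial, so its rank is uncertain to that extent.

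Signal peptidase subunits lay between 64.5 FPKM (SPCS2) and 106 FPKM (SPCS3) in the mutants and between 37.7 and 74.1 FPKM for the same subunits in the wild type. SPCS3 and the catalytic SEC11A did not differ beyond their spread in the mutants, at 106 ± 6.57 and 105 ± 10.1 FPKM. Among SRP proteins, SRP54 was the most abundant in both phenotypes, with 57.7 ± 1.57 FPKM in the mutants and 47.4 ± 2.15 FPKM in the wild type. The other 5 lay between 25.5 FPKM (SRP9) and 36.6 FPKM (SRP19) in the mutants, and between 16.1 and 22.1 FPKM for the same proteins in the wild type. SRP9, SRP14 and SRP68 could not be ranked in the wild type, at 16.1 ± 0.692, 16.5 ± 0.768 and 16.7 ± 0.667 FPKM. On the TMM-scaled CPM, the ratio of summed loci, mutant over wild type, ran from 1.06 for SRP54 and 1.16 for SEC62 to 1.52 for SEC61G, 1.53 for SRP68 and 1.63 for SRP14, with 3.03 for BiP.

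**Figure D3:**
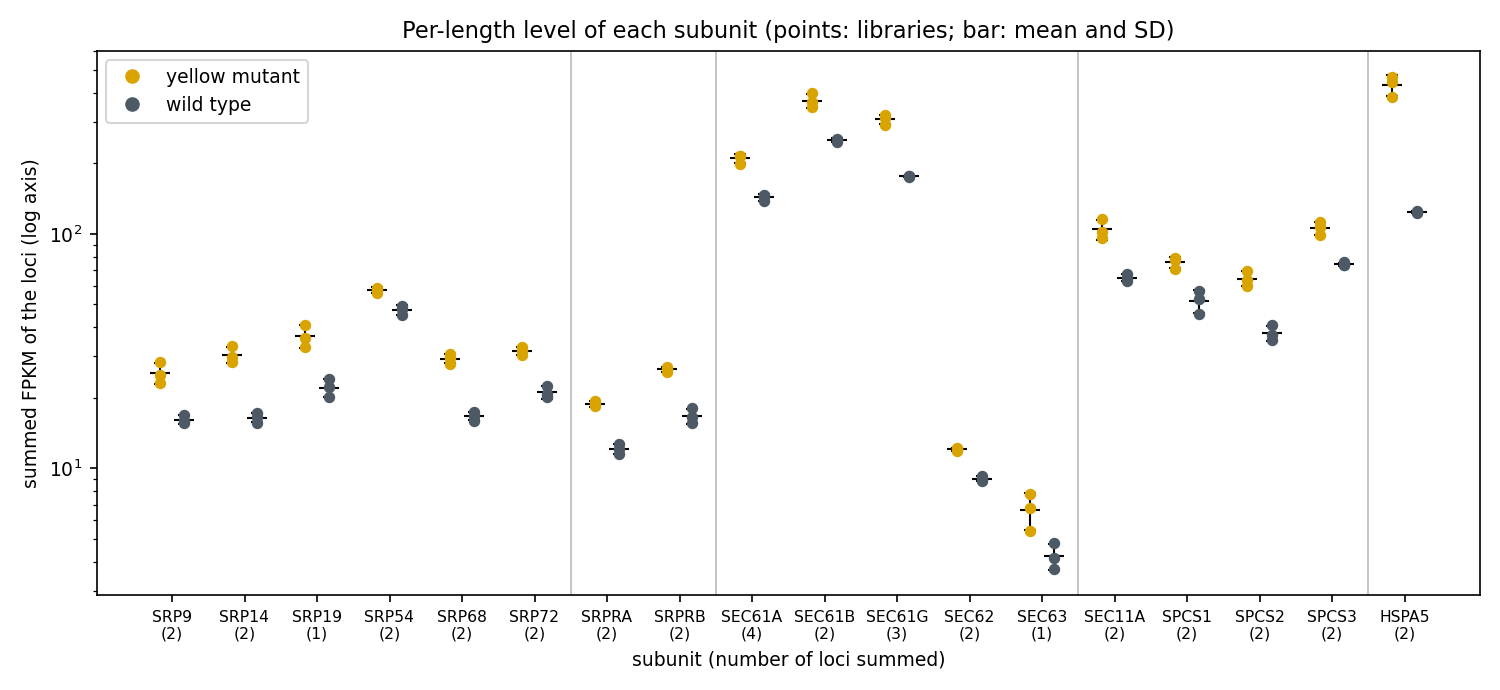
Summed deposited FPKM of the loci of each ER-route subunit (y axis, log scale) in each library, yellow mutant left of wild type, with mean and SD (n = 3 each). BiP tops the mutant libraries at 431 FPKM on average, while Sec61 beta tops the wild-type libraries at 251 FPKM. SEC63, 1 locus with a product name marked partial, is lowest in both.

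Copies of the same subunit gave unequal fold changes. The ratio of the counts of both copies within a library needs no scaling, and its groups did not overlap in 17 of 23 pairs (73.9%) over 16 subunits. Of 14423 pairs formed by shared symbol over the whole table, 48.2% had groups apart. Their median absolute difference was 0.34 log2 units, against 0.24 for the export pairs. The symbol pairs had the same minimum of 10 counts, with at most 4 such loci per symbol. They were not formed by subunit or matched on abundance, so the shares are not strictly comparable. No single pair could pass, since an exact two-sided permutation test of 3 against 3 libraries gives at least 0.1, and 0.135 after Benjamini-Hochberg adjustment over the 23 pairs. The pairs of SEC61A and SEC61G share loci and are not independent.

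The SRPRB pair differed most. The more abundant locus, ncbi_110508058, supplied 53.6 ± 2.28% in the yellow mutant libraries and 67.0 ± 3.28% in the wild-type libraries of the SRPRB counts. Its log2 count ratio to ncbi_110503251 was 0.36, 0.11 and 0.16 in the yellow mutant libraries, against 0.78, 1.11 and 1.18 in the wild-type libraries, a difference of -0.81 (exact p = 0.1). Within Sec61 alpha, sec61ab ncbi_110528150 supplied 75.0 ± 1.20% in the yellow mutant libraries and 63.6 ± 1.27% in the wild-type libraries of its sum with sec61aa ncbi_100136621, a difference of 0.78 in the log2 ratio. In all 3 pairs of a higher Sec61 alpha locus with sec61aa the share of sec61aa was smaller in the mutants, with log2 ratio differences of 0.54, 0.65 and 0.78. For SEC61G, ncbi_110530371 supplied 75.3 ± 1.06% in the yellow mutant libraries and 65.0 ± 3.84% in the wild-type libraries of its sum with ncbi_110489588.

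In SEC61B the abundant copy supplied 77.4 ± 0.636% in the yellow mutant libraries and 83.0 ± 0.610% in the wild-type libraries, a smaller share in the mutants. In SRPRA the abundant copy, ncbi_110504039, supplied 78.4 ± 1.08% in the yellow mutant libraries and 71.2 ± 0.705% in the wild-type libraries, a greater share in the mutants. The abundant SRP54 copy also had a greater share in the mutants, at 93.3 ± 0.253% in the yellow mutant libraries and 91.2 ± 0.776% in the wild-type libraries. Ratios overlapped between phenotypes for SRP9, SRP14, SRP68, SEC62, SPCS1 and SPCS2.

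**Figure D4:**
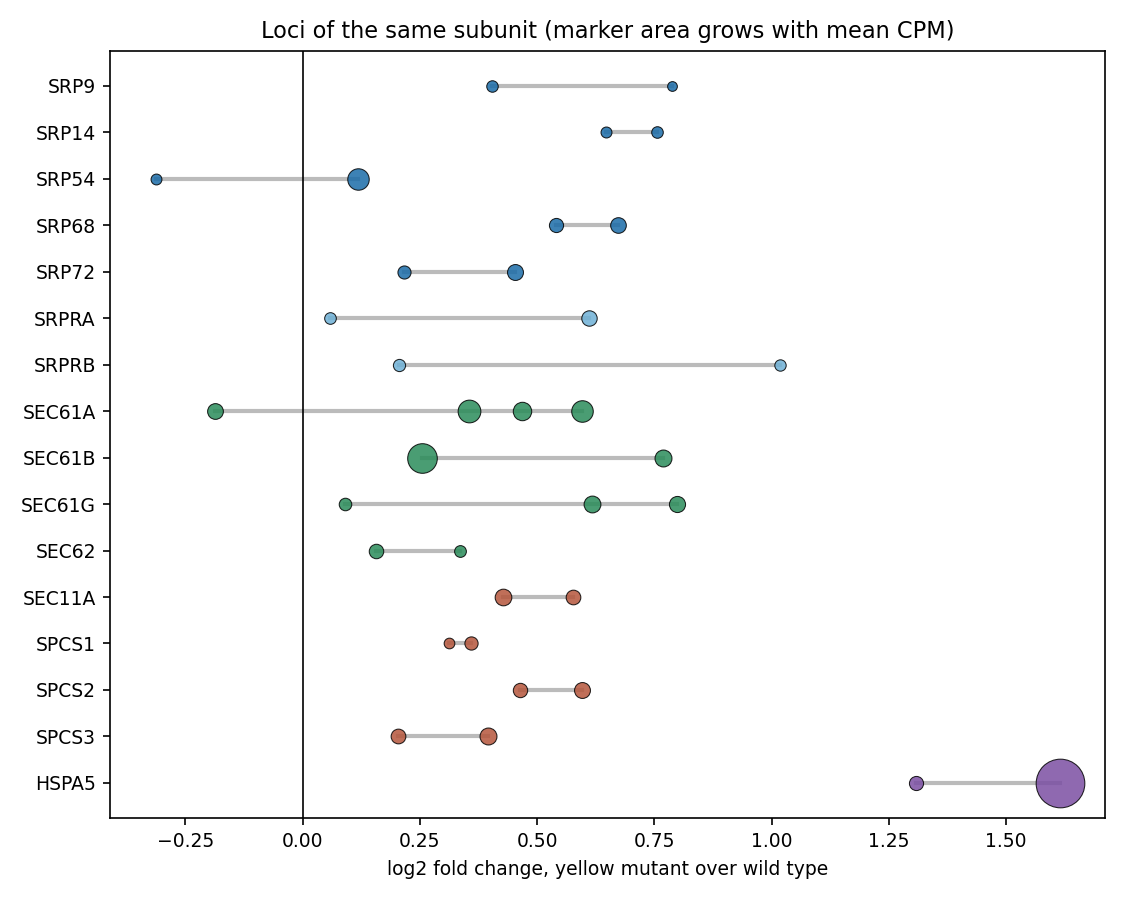
Log2 fold change, yellow mutant over wild type (x axis), of the loci of each subunit with 2 or more tested loci outside the mitochondrial group (y axis); marker area grows with mean CPM and a line joins the copies. SPCS1 copies lie closest together, at 0.36 and 0.31, and SRPRB copies span 0.21 to 1.02.

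The neighbours of the export route in the ER were described from lists of symbols, beside 21.7% higher and 23.1% lower of all tested loci. The translocon-associated protein complex (TRAP) and TRAM, which sit beside Sec61, had 9 higher loci, 0 lower and 6 that did not pass of 15 tested, with a median log2 fold change of 0.40 (by edgeR, 0 were lower at an unadjusted p under 0.05 as well). Both loci each of ssr3 and ssr4 were higher, and neither ssr2 locus passed. The most abundant locus, SSR2 (ncbi_110496355), averaged 233 ± 8.33 CPM in yellow mutant skin and 242 ± 12.1 CPM in wild-type skin (log2 fold change -0.05 ± 0.08, adjusted p = 0.62), a direction that turned to 0.15 under library totals alone. SSR1 (ncbi_110535306) had the greatest change of the list, with 38.7, 41.4 and 43.7 CPM in the yellow mutant libraries, against 24.9, 24.6 and 26.4 CPM in the wild-type libraries (log2 fold change 0.71 ± 0.08, adjusted p = 1.24e-05).

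Oligosaccharyltransferase, which glycosylates chains as they leave Sec61, had 12 higher and 2 lower of 21 tested loci, with a median of 0.34. Both rpn1, both rpn2 and both dad1 loci were higher, and the 2 lower loci belonged to the tusc3 and magt1 group, oxidoreductase subunits that also take part in magnesium transport. The abundant ddost locus (ncbi_110492237) had 181, 187 and 191 CPM in the yellow mutant libraries, against 131, 131 and 130.4 CPM in the wild-type libraries (log2 fold change 0.51 ± 0.07, adjusted p = 7.86e-05). DAD1 (ncbi_110524477) averaged 41.8 ± 3.73 CPM in yellow mutant skin and 25.7 ± 1.39 CPM in wild-type skin (log2 fold change 0.70 ± 0.09, adjusted p = 2.75e-05).

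ER folding enzymes had the highest share of the lists, with 38 higher and 3 lower of 49 tested loci and a median of 0.78. Without the 2 BiP loci counted above, 36 of 47 were higher and the median was 0.74. Among the 47, ncbi_110533510, named after its values were seen, has a BiP-like product name but the symbol hsc71. It did not pass (log2 fold change 0.06 ± 0.19, adjusted p = 0.815). Both tested loci each of hsp90b1, canx, hyou1 and sdf2l1 were higher (2 further hsp90b1 loci and 1 further canx locus were removed by the filter on low counts), as were 5 of 6 calr loci and all 4 manf and creld2 loci. Of 15 tested protein disulfide isomerase loci, 11 were higher and 2 lower, and of 10 tested loci of the J proteins dnajb9, dnajb11 and dnajc3, 8 were higher and 1 lower. The 3 ero1 loci did not pass, with log2 fold changes from -0.16 to -0.0022. DNAJB9 (ncbi_110490251), a BiP co-chaperone, had 19.3, 17.96 and 21.8 CPM in the yellow mutant libraries, against 5.43, 5.37 and 5.33 CPM in the wild-type libraries, the greatest change past the threshold (log2 fold change 1.87 ± 0.11, adjusted p = 5.75e-08). Further loci, the 3 lower ones included, were chosen after their values were seen. Another DNAJB9 locus (ncbi_110500224) averaged 23.5 ± 2.30 CPM in yellow mutant skin and 7.22 ± 1.22 CPM in wild-type skin, and DNAJC3 (ncbi_110520159), another BiP co-chaperone, 67.4 ± 4.47 CPM in yellow mutant skin and 20.5 ± 0.811 CPM in wild-type skin. MANF (ncbi_110525202), a small secreted ER protein, averaged 108 ± 7.85 CPM in yellow mutant skin and 34.8 ± 6.22 CPM in wild-type skin, and PDIA6 (ncbi_110529378), a disulfide isomerase, 411 ± 19.9 CPM in yellow mutant skin and 226 ± 1.84 CPM in wild-type skin. Their log2 fold changes were 1.70, 1.72, 1.64 and 0.87, all with groups apart. Among further DNAJB9 loci, ncbi_110500011 was higher (log2 fold change 1.25 ± 0.15) and ncbi_110524688 did not pass (0.34 ± 0.18, adjusted p = 0.152). The DNAJB9 locus ncbi_110528190 was removed by the filter on low counts. Another DNAJC3 locus (ncbi_110510233) averaged 1.88 ± 0.618 CPM in yellow mutant skin and 4.87 ± 1.67 CPM in wild-type skin (log2 fold change -1.36 ± 0.29, adjusted p = 0.00172), and the disulfide isomerase locus MSTRG.5135 1.86 ± 0.256 CPM in yellow mutant skin and 4.83 ± 0.637 CPM in wild-type skin (log2 fold change -1.37 ± 0.21, adjusted p = 0.000134). The membrane-bound isomerase tmx3 (ncbi_110489884) averaged 49.4 ± 1.71 CPM in yellow mutant skin and 57.3 ± 3.76 CPM in wild-type skin (log2 fold change -0.22 ± 0.08, adjusted p = 0.0366), a call lost in 12 settings, among them without wild-type library 3 or any single yellow mutant library (adjusted p 0.052 to 0.888).

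Sensors and factors of the unfolded protein response, which adjusts the amounts of these proteins, had 7 higher and 6 lower of 20 tested loci and a median of 0.20, against 21.7% higher and 23.1% lower of all tested loci. This split depended on the scaling. Under library totals alone 10 were higher and 4 lower, against 35.2% higher of all tested loci. Each limma fit gave 9 higher and 2 lower, against 33.6% to 37.4% higher of all tested loci. The most abundant, atf4 ncbi_110494903, averaged 321 ± 15.4 CPM in yellow mutant skin and 332 ± 15.8 CPM in wild-type skin (log2 fold change -0.05 ± 0.08, adjusted p = 0.646), and turned to 0.15 under library totals. The greatest change was in Ern1 ncbi_110538775, a locus of the sensor IRE1, with 1.62, 2.202 and 2.05 CPM in the yellow mutant libraries, against 30.9, 27.5 and 24.1 CPM in the wild-type libraries (log2 fold change -3.80 ± 0.14, adjusted p = 1.53e-09). Its neighbour in number ERN1 ncbi_110538772, chosen after its values were seen, was higher, with 33.0 ± 1.94 CPM in yellow mutant skin and 22.5 ± 3.35 CPM in wild-type skin (log2 fold change 0.55 ± 0.10, adjusted p = 0.000849). These loci have near-identical product names. Whether reads were split between them was not tested. Also chosen after the values were seen, both XBP1 loci, which encode a factor activated by IRE1, were higher. MSTRG.17533 averaged 194 ± 6.98 CPM in yellow mutant skin and 161 ± 8.87 CPM in wild-type skin (log2 fold change 0.27 ± 0.08, adjusted p = 0.0124, lost without wild-type library 1 or 2 at 0.0507 to 0.0519), and MSTRG.9277 109 ± 3.30 CPM in yellow mutant skin and 77.8 ± 5.23 CPM in wild-type skin (log2 fold change 0.49 ± 0.08, adjusted p = 0.000182). Both DDIT3 loci, encoding CHOP, were lower, with log2 fold changes of -0.52 ± 0.12 for ncbi_110494779 and -0.32 ± 0.08 for ncbi_110527691 (adjusted p = 0.0038 and 0.00513), with the call lost for the first in the 4 limma fits and for the second in these and under both library totals settings. The other entries of the list were mixed or did not pass. The atf6 and atf4 entries each had 2 higher and 1 lower of 5 tested loci, and the IRE1 entry 1 higher and 2 lower of 4. Neither locus of eif2ak3 (PERK) passed, at log2 fold changes of 0.46 and 0.61.

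**Figure D5:**
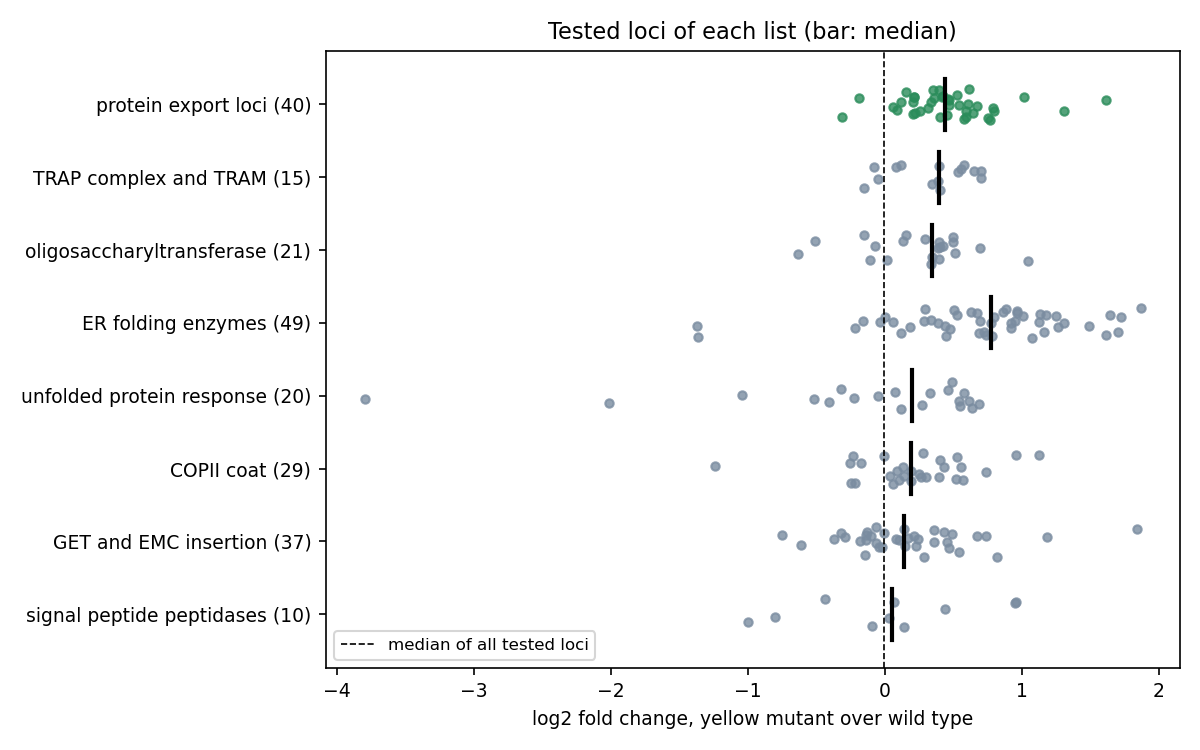
Log2 fold change, yellow mutant over wild type (x axis), of every tested locus in the protein export group and in 7 lists of related ER genes (y axis, number tested in brackets); the bar is the median and the dashed line the median of all tested loci. Medians run from 0.78 for ER folding enzymes and 0.44 for protein export to 0.05 for signal peptide peptidases.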

How the data were processed

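Total RNA from dorsal skin was sequenced as Illumina libraries, per the labels' protocols, and the libraries were grouped by the labelled phenotype. The submitters' processing notes name TopHat2 2.1.1 and Bowtie2 2.2.8, with no roles. Not given in the sources used here are the counter, how it treated shared reads or strand, the annotation and the build. Per the file headers, each locus has raw read counts and the authors' FPKM in every library. The authors' p-value and FDR and their log2 fold change between phenotypes are also in the deposited table. They were used only for the counts quoted from it and for the comparison of its FDR with DESeq2. The mean FPKM per phenotype in it was not used.

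Loci were taken by pathway annotation and product name and grouped by KEGG orthology entry. All 43 were found by gene number in the RefSeq gene table of assembly USDA_OmykA_1.1, used for names only. Counts of the whole table were filtered with filterByExpr, scaled with TMM and tested with glmQLFit and glmQLFTest (edgeR 4.0.16, R 4.3.3). Adjusted p-values are Benjamini-Hochberg over 30691 loci, with a threshold of 0.05, and the SE is the log2 fold change divided by the square root of F. The fit was tested on simulated data with few changed loci and no built-in shift in composition, so that test does not bear on the choice of scaling. Alternatives were DESeq2 1.42.0, limma 3.58.1 on log2(FPKM + 0.5), other pseudocounts (0.1 and 1), filters, scalings, a replicate block and each library left out. Library totals of 15059101 counts or more set the counting error, and replicates differed by more than sampling noise (chi-square per degree of freedom 3.88 to 23.1).

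Copy ratios are log2 count ratios of 2 loci of a subunit with at least 10 counts each in every library. Export loci are given with every library's value when most abundant of their subunit, or past the threshold with a log2 change of 0.5 or more in size or the largest of their group. The rarer Srp54 locus and sec61aa were added after their values were seen. Related loci are named when most abundant of their list or of the largest change past the threshold at 5 CPM or more, and otherwise said to be chosen after their values were seen. The members and lists were chosen with earlier results of these data known. Erythrocyte markers had 0 higher and 4 lower of 9 tested loci, leukocyte markers 0 and 2 of 7, and nerve and Schwann cell markers 2 and 1 of 5.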

Additional observations from a re-analysis of the deposited data

How the results depend on the processing

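Under 16 other settings the number of protein export loci called higher stayed within 1.5 times the 29 reported. It was 29 with DESeq2 size factors in edgeR and with the replicate number as a block, 28 with no filter on low counts, 24 with DESeq2, 36 with library totals without keratin loci, 38 with library totals alone and 37 in each of the 4 limma fits on FPKM. With 1 library left out it was 25 to 28, and 26 higher loci remain when only SRP, receptor, translocon and signal peptidase products are counted. Of all tested loci, 14.5% were higher with DESeq2 and 17.9% to 19.2% with 1 library left out. The share was 30.8% under library totals without keratin loci, 35.2% under library totals alone and 33.6% to 37.4% in the limma fits. The number of export loci called lower, 1 as reported, was 0 under library totals, totals without keratin, no filter, DESeq2, the limma fits and the replicate block, and 0 to 1 with 1 library left out. The samples share only a replicate number: correlations of same-numbered deviations were 0.0137 to 0.0800, each library correlated best with its own number, and the block changed no other member's call. Under scalings that keep the library totals the median of all loci rose by up to 0.20, and some directions turned: sec61aa to 0.0113 (totals) and 0.0218 to 0.0226 (limma, 0.0222 with a pseudocount of 0.5), SSR2 to 0.15 (totals), 0.0869 (without keratin) and 0.15 (limma), atf4 to 0.15 (totals), 0.0890 (without keratin) and 0.15 (limma), and Bag6 to 0.10 (totals), 0.0363 (without keratin) and 0.0896 to 0.10 (limma, 0.0937 with a pseudocount of 0.5). The cause was not tested. Lower calls of the GET and EMC list were 1 in the limma fits, against 3 as reported. Signal peptide peptidases had 5 higher loci under library totals, against 3. Of single-locus comparisons, 902 kept direction and side of the threshold, 63 lost the call, 52 gained it and 23 reversed. With at least 50 counts per locus, 17 of 22 copy pairs had groups apart. The filter on low counts removed 3 protein export loci from the reported test. Of these, immp1l ncbi_110506942 had a log2 fold change of 0.59 to 0.96 in 6 other settings and Oxa1l ncbi_110532942 one of 0.16 in 2, none past the threshold.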

Other observations

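Tail-anchored and multi-span proteins enter the membrane through the GET pathway and the ER membrane protein complex (EMC), and 13 of 37 tested loci of these were higher and 3 lower, median log2 fold change 0.14. The share higher was 35.1%, against 21.7% of all tested loci, of which 23.1% were lower. The most abundant, Bag6 (ncbi_110488264), a chaperone of the GET route, averaged 45.0 ± 0.640 CPM in yellow mutant skin and 48.3 ± 1.14 CPM in wild-type skin (SD, n = 3 each), a log2 fold change of -0.10 ± 0.07 (adjusted p = 0.263). EMC8 (ncbi_110506612) had 19.0, 17.2 and 18.9 CPM in the yellow mutant libraries, against 4.53, 5.22 and 5.63 CPM in the wild-type libraries, with the groups apart and a log2 fold change of 1.84 ± 0.12 (adjusted p = 7.99e-08).

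The COPII coat, which carries cargo from the ER to the Golgi, had 12 higher and 2 lower of 29 tested loci and a median of 0.19. The share higher was 41.4%, against 21.7% of all tested loci. Without wild-type library 2 the count of higher loci was 7, against 17.9% of all tested loci. Under library totals alone the count was 19, against 35.2% of all tested loci. Without wild-type library 1 there were 4 lower loci, against 6582 of all 31300 tested. SAR1A (ncbi_110537724), the small GTPase that starts the coat and the most abundant locus of the list, averaged 106 ± 2.54 CPM in yellow mutant skin and 89.4 ± 3.62 CPM in wild-type skin (log2 fold change 0.25 ± 0.07, adjusted p = 0.0127), a call lost without wild-type library 2 (0.0696). The locus ncbi_110493485, with the symbol SEC23A and a product name of Sec23B, had 35.7, 41.3 and 35.7 CPM in the yellow mutant libraries, against 70.4, 96.0 and 100.1 CPM in the wild-type libraries, lower in every mutant library (log2 fold change -1.24 ± 0.12, adjusted p = 2.89e-06). Signal peptide peptidase, which clears the cut signal peptides from the membrane, was listed together with its relatives of the sppl symbols. That list had 3 higher and 2 lower of 10 tested loci. These counts were near the shares of all tested loci, 21.7% higher and 23.1% lower. HM13 (ncbi_110532284), signal peptide peptidase itself, averaged 65.5 ± 2.12 CPM in yellow mutant skin and 48.2 ± 2.06 CPM in wild-type skin (log2 fold change 0.44 ± 0.07, adjusted p = 0.000312), while Sppl2a (ncbi_110526660) averaged 6.42 ± 1.08 CPM in yellow mutant skin and 12.9 ± 1.40 CPM in wild-type skin (log2 fold change -0.998 ± 0.14, adjusted p = 7.47e-05).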
